A study of Homo sapiens with 12 samples.

Results

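The zinc finger genes of chromosome 19 were examined in HCT116 cells, a human colon carcinoma line, after inhibition of a topoisomerase and stimulation with TNFα. The genes were selected on name, place and read count: the symbol is ZNF followed by digits and at most 1 letter, the gene lies only on chromosome 19, and it had a mean raw count of at least 50 over the 12 libraries. This gave 130 of the 26364 genes counted. The symbol and the chromosome alone fit 253 genes, of which 123 fell below the mean count and 25 had no read in any library. The mean raw count was 51.3 for *ZNF85*, 54.6 for *ZNF649* and 55.9 for *ZNF814*, just inside the limit, and 49.2 for *ZNF585A*, 45.9 for *ZNF554* and 44.9 for *ZNF222*, just outside it.

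There were 12 conditions with 1 library of total RNA each. HCT116 WT cells and a p65-deficient clone, clone 32, received no inhibitor, camptothecin (CPT) or ICRF193 (5 µM, 2 h), and were then left without TNFα (0 h) or given 20 ng/mL of it for 1 h. CPT traps topoisomerase 1 (TOP1) on DNA, ICRF193 blocks the catalytic cycle of topoisomerase 2 (TOP2), and TNFα activates the transcription factor NF-κB, of which p65 is a subunit. The deposited labels call the p65-deficient cells shRNA p65 whereas the study's methods describe a clone made by CRISPR-Cas9, and a single clone stands for the genotype. The inhibitor was given before TNFα, so that the time spent in the inhibitor may be longer in the libraries with TNFα.

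Most zinc finger proteins of chromosome 19 bind DNA through tandem C2H2 fingers and carry a KRAB domain at their amino end. The KRAB domain recruits TRIM28 (KAP1), which brings in the histone H3 lysine 9 methyltransferase SETDB1, the HP1 proteins and histone deacetylases, and many KRAB zinc finger proteins silence transposable elements in this way. The genes arose by repeated tandem duplication, lie in clusters and have closely related sequences.

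To show what lies in front of members that moved apart, the RefSeq promoter windows of 5 of them are printed (GRCh38.p14, 250 bases before to 50 after the start, 5′ to 3′ on the gene's own strand). Of the 130 members, 116 matched a window by symbol. The 5 were chosen after their values were seen. *ZNF627* was the member lowered most by CPT, and *ZNF296* and *ZNF580* were the most raised. *ZNF567* and *ZNF675* were the most lowered ones whose window holds CCGGAAG, which includes the GGAA core recognised by ETS factors. The 5 windows lie at chr19:11597233-11597532 (plus strand, ZNF627), chr19:36666684-36666983 (plus, ZNF567), chr19:23687163-23687462 (minus, ZNF675), chr19:45076429-45076728 (minus, ZNF296) and chr19:55640752-55641051 (plus, ZNF580). Capitals mark CCGGAAG or its reverse complement CTTCCGG.
ZNF627: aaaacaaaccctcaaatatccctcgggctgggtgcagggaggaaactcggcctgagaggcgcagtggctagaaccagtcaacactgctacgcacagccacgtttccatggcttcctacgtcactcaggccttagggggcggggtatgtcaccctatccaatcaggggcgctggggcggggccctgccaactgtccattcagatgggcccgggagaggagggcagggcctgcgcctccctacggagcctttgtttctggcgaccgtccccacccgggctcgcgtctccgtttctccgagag
ZNF567: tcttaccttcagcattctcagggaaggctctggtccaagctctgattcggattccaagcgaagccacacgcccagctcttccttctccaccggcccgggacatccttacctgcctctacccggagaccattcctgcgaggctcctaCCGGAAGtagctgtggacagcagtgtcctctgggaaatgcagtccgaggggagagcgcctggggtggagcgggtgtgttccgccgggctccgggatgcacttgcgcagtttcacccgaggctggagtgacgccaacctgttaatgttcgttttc
ZNF675: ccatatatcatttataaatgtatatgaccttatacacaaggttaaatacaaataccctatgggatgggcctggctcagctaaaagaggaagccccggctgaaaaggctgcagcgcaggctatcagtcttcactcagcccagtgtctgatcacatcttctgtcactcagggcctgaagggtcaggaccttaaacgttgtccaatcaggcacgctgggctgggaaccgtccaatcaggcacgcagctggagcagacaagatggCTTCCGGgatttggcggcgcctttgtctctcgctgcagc
ZNF296: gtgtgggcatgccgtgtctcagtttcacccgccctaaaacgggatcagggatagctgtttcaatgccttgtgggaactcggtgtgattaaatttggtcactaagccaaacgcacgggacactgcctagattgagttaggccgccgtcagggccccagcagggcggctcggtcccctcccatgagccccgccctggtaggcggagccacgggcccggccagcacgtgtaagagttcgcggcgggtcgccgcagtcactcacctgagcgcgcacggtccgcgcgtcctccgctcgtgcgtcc
ZNF580: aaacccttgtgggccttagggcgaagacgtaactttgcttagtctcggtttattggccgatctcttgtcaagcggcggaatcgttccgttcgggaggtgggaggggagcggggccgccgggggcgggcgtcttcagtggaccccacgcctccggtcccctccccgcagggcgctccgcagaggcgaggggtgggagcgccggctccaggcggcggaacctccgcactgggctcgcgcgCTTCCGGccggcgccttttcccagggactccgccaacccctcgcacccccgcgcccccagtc

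Of the 3 printed windows with a copy, those of *ZNF567* and *ZNF675* were picked for holding it, and the other is that of *ZNF580*. A tally of these windows by direction was therefore set by the choice and is not a result. Over all members, 54 of 116 windows (46.6%) held CCGGAAG on either strand, against 63 of 157 (40.1%) for ZNF genes on other chromosomes, 101 of 524 (19.3%) for other chromosome 19 genes, and 10.7% of the 27305 windows of all genes. It was found in 46 of 98 windows of members lowered by CPT (46.9%) and in 8 of 18 windows of the others (44.4%). CCAAT, with its reverse complement ATTGG, was found in 53.4% of the member windows, 42% of those of ZNF genes elsewhere, 40.3% of those of other chromosome 19 genes and 35.7% of all windows. In the same order, GGGCGG (or CCGCCC) was found in 66.4%, 65%, 80% and 44.6%, and TATAAA (or TTTATA) in 2.59%, 4.46%, 5.15% and 12%. The motifs were not masked against each other, and a match of letters is not a measured binding site.

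Between 8101212 and 22051046 reads were counted per library, and 4 of the 6 p65-deficient libraries (ICRF193 at 0 h and all 3 with TNFα) had 8101212 to 8755001. *RELA*, which encodes p65, had 694 to 909 normalized counts in the WT libraries and 548 to 673 in the p65-deficient ones, without overlap. *TOP1* was present in all libraries. Of 8 markers of colon epithelium, 6 had at least 20 reads in a library (*VIL1* and *LGR5* at most 4 reads), and 3 of 9 markers of other cells did so (*CD68*, *COL1A1* and *VWF*). The summed normalized count was 52542 to 68707 for the epithelial markers and 296 to 542 for the others. A normalized count is the count divided by the DESeq2 size factor of the library. Since no condition has a replicate, comparisons used matched pairs of libraries, which stand in for replicates, and p-values measure the spread between such pairs. Unless another test is named, log2 fold changes, standard errors (SE) and adjusted p-values come from edgeR's quasi-likelihood test, which was blocked by pair and was fitted and adjusted over all genes tested. A gene passed, and is said to have risen or fallen, where its adjusted p was under 0.05. The SE is derived from the test statistic and can be smaller than the spread between pairs. All 130 members passed the filter on low counts in every comparison. Reads that map equally well to several of these related genes were not counted, so that levels of close copies are uncertain.

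CPT lowered most of the chromosome 19 zinc finger genes. In the 4 pairs of CPT against no inhibitor (WT and p65-deficient, 0 h and 1 h TNFα), 107 of 130 members fell and 4 rose, while 19 did not pass. Of the 13993 genes tested, 25.1% fell and 23.2% rose. The median log2 fold change of the members was -0.92, against 0.02 for all genes tested. The median of the members was -0.98 and -0.97 in the WT pairs without and with TNFα, and -0.81 and -0.83 in the p65-deficient pairs. All 4 pairs lay below 0 for 107 members and above 0 for 3, against 4015 and 4188 of the 13993 genes tested. These are not the same 107 members as those that fell. *ZNF333* fell with 1 pair above 0 (0.10), and *ZNF414* lay below 0 in all 4 pairs without passing. The fall was more than 2-fold for 56 members (43.1% of them, against 4.35% of all genes tested). No member rose more than 2-fold, while 711 of all genes tested did. In 97 members every CPT library was lower than every library without inhibitor (20.2% of all genes tested), and in 2 members every CPT library was higher (17.2%). Together, the members took 2706 to 3033 CPM (counts scaled to a common library total) in the 4 libraries without inhibitor and 1511 to 1776 in the 4 with CPT, without overlap. In bulk RNA, fewer cells with a transcript and less of it per cell cannot be told apart, and counts on exons do not separate synthesis from decay.

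*ZNF627* fell most (chromosome 19, 11708235 to 11729974, hg19, plus strand). It had 327 and 281 normalized counts in WT cells without inhibitor (0 h and 1 h TNFα) and 375 and 416 in p65-deficient cells, against 54.8, 57.6, 107 and 83.8 with CPT. All CPT libraries were thus far below the others. The log2 fold change was -2.22 (SE 0.13, adjusted p = 1.76e-07; pairs -2.58 to -1.81). *ZNF112* (44830706 to 44860856, minus strand) had 83.4, 80.4, 100.3 and 85.0 normalized counts without inhibitor and 13.3, 23.3, 30.4 and 12.2 with CPT (-2.09, SE 0.20, adjusted p = 8.36e-06), so its levels with CPT rest on few reads. *ZNF114* (48773356 to 48790865, plus strand), which has only 3 fingers by the pattern used, had 142, 143, 166 and 185 normalized counts without inhibitor and 28.2, 43.8, 46.0 and 29.7 with CPT (-2.05, SE 0.16, adjusted p = 1.53e-06). Neither gene had a CPT library above any library without inhibitor.

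*ZNF567* (37178514 to 37212238, plus strand) had 233, 249, 211 and 267 normalized counts without inhibitor and 45.7, 54.7, 71.0 and 80.3 with CPT (-1.97, SE 0.14, adjusted p = 8.25e-07). *ZNF136*, a KRAB repressor, fell by 1.94 on the log2 scale (pairs -2.09 to -1.73), and *ZNF566* by 1.81 (pairs -3.02 to -1.27). The lowest *ZNF566* pair, p65-deficient with TNFα, rests on 6 reads in its CPT library. Exons of *ZNF566* overlap those of LOC728752, and reads in the overlap were not counted. *ZNF675*, whose product binds TRAF6 and is known to dampen its signalling, had 169, 157, 169 and 204 normalized counts without inhibitor and 52.3, 51.8, 49.9 and 43.7 with CPT, a change of -1.78 (pairs -2.22 to -1.60). The CPT levels of *ZNF675* lay close together in both lines. *ZNF57*, *ZNF613* and *ZNF799* complete the 10 members that fell most, with log2 fold changes of -1.62, -1.61 and -1.59. All 10 carry a KRAB motif.

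The members that rose did so by less. *ZNF296* (45574758 to 45579688, minus strand), a gene of pluripotent cells, had 104, 106, 102 and 81.6 normalized counts without inhibitor and 149.5, 176, 204 and 179.9 with CPT (0.82, SE 0.12, adjusted p = 0.000199). *ZNF580* (56152392 to 56154836, plus strand) had 196, 221, 168 and 159.7 normalized counts without inhibitor and 257, 259.8, 357 and 297 with CPT (0.63, SE 0.13, adjusted p = 0.00262). These are the 2 members in which every CPT library was above every library without inhibitor. *ZNF428* rose by 0.26 (pairs 0.10 to 0.51), with an adjusted p of 0.0378 in edgeR and of 0.0928 in DESeq2, and its exons overlap those of *SRRM5*. *ZNF211* also passed (0.57, adjusted p = 0.0199), but its 4 pairs ran from -0.13 to 1.14 and it was lower with CPT in the WT pair without TNFα. Of the 4 raised members, only *ZNF211* has a KRAB motif.

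*ZNF580* has the neighbour *ZNF581* on the same strand (56154986 to 56156989), the shortest member. *ZNF581* had 554, 526, 499 and 435 normalized counts without inhibitor and 272, 261, 324 and 264 with CPT (-0.86, SE 0.09, adjusted p = 1.36e-05). Of these adjacent genes, one thus rose and the other fell in all 4 pairs.

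Among the 19 members that did not pass, the 5 with the highest mean counts were *ZNF460*, *ZNF358*, *ZNF302*, *ZNF444* and *ZNF446*. *ZNF460* had 604, 558, 661 and 729 normalized counts without inhibitor and 507.5, 489.6, 627 and 693 with CPT, lower in each pair by a small amount (-0.16, SE 0.06, adjusted p = 0.0598). *ZNF302* had 149, 131.5, 151 and 200.5 without inhibitor and 159, 169, 145 and 189 with CPT, with ranges that overlap (0.08, SE 0.11). *ZNF358*, *ZNF444* and *ZNF446* had log2 fold changes of 0.11, -0.14 and -0.17, with SEs of 0.11, 0.10 and 0.16.

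**Figure D1:**
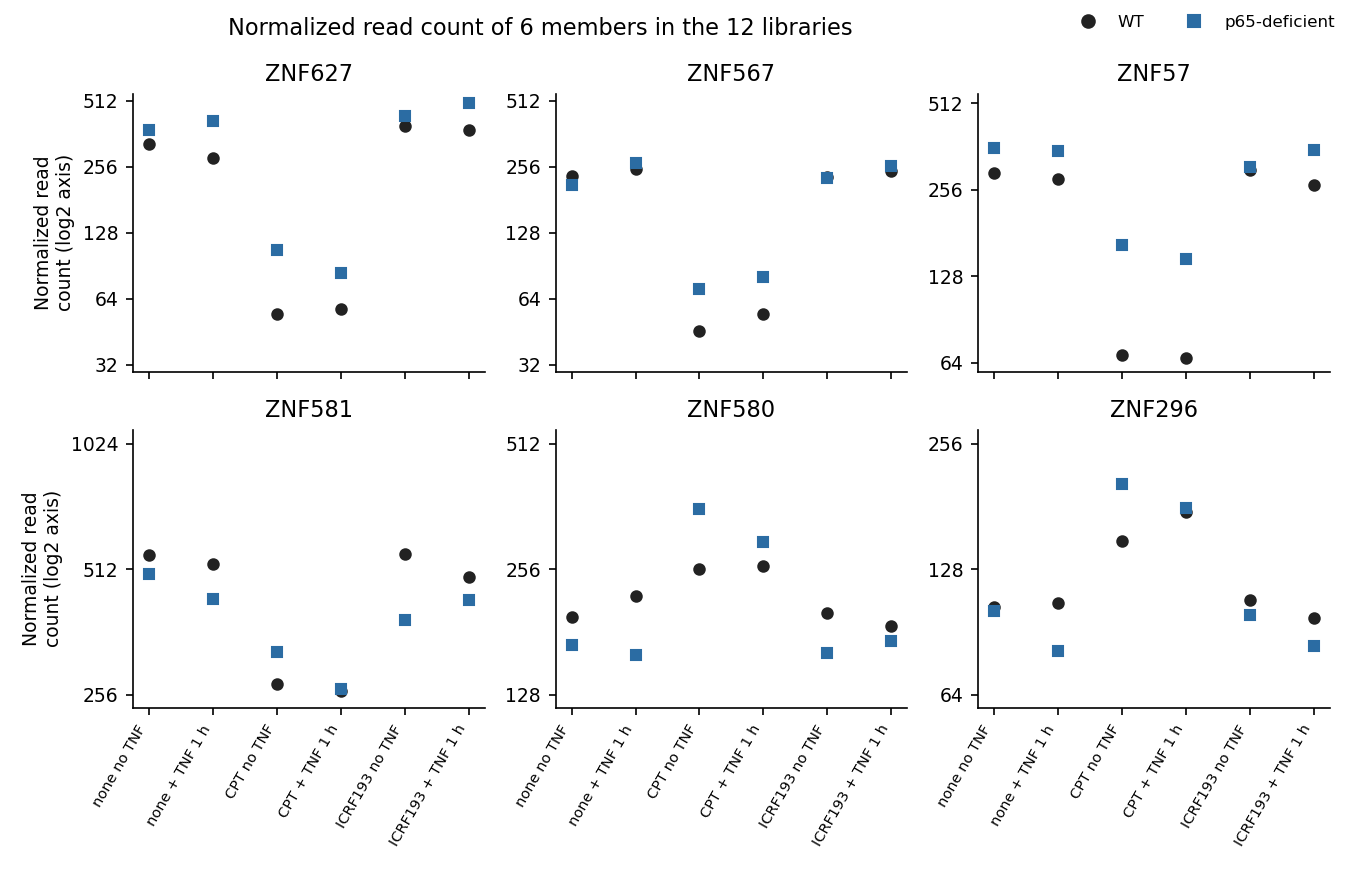
Normalized read count (log2 axis) of 6 members in each of the 12 libraries, by inhibitor and TNFα, with WT as circles and the p65-deficient clone as squares. ZNF627, ZNF567, ZNF57 and ZNF581 are lowest in the 4 CPT libraries, ZNF580 and ZNF296 are highest there, and the ICRF193 libraries lie near those without inhibitor.

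The fall with CPT ran along the whole chromosome. With a new cluster started wherever the gap between neighbouring members exceeded 1 Mb (hg19), the members formed 18 clusters, of which 4 hold a single gene. The median log2 fold change was below 0 in all 18. The 28 members between 57702868 and 59000900 had a median of -0.88, with 24 fallen and 1 risen (*ZNF211*). The 22 members between 52074531 and 53961515 had a median of -0.98, with 20 fallen. The lowest median among clusters of several genes was -1.33, for the 9 members between 36672962 and 38270230, of which 7 fell. All 12 members between 11594242 and 12740676 fell, by 0.49 to 2.22 on the log2 scale. At the other end, the 4 members between 35168544 and 35454953 had a median of -0.26, and only *ZNF792* of them fell (-1.05). The 9 members between 55987699 and 56672262, none with a KRAB motif, had a median of -0.56, with 5 fallen and 1 risen. Within clusters the spread was wide, as in the cluster of 12 between 44100544 and 45579688, which holds both *ZNF112* and *ZNF296*.

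**Figure D2:**
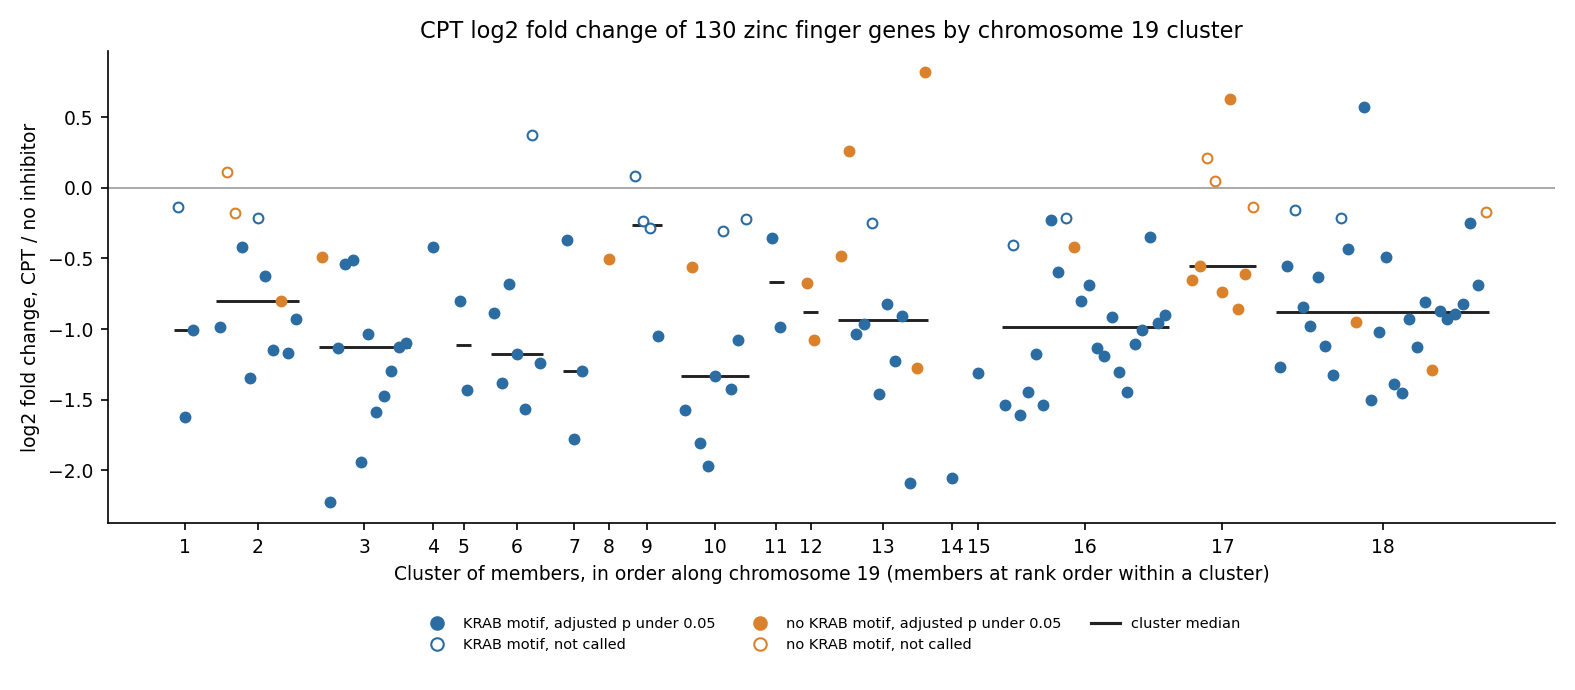
Log2 fold change of CPT against no inhibitor (y axis) for the 130 members in rank order within 18 clusters along chromosome 19 (x axis). Blue points have a KRAB motif, orange points have none, filled points have an adjusted p under 0.05, and black bars are cluster medians, which run from -2.05 (a single gene) to -0.26.

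The members were split by whether their GENCODE protein holds a KRAB motif. Of 105 members with the motif, 91 fell and 1 rose, with a median of -1.01 and 53 lowered more than 2-fold. Of 25 without it, 16 fell and 3 rose, with a median of -0.50 and 3 lowered more than 2-fold. The difference between these lists was not tested. The pattern finds typical KRAB boxes, so that a divergent box counts as none. It was widened after values were seen, so the split was not fixed beforehand. Of the ZNF genes on other chromosomes with at least the same mean count, 75 had the motif, of which 59 fell and 3 rose (median -0.73), and 119 lacked it, of which 81 fell and 10 rose (median -0.49). The other 665 chromosome 19 genes with that mean count had a median of 0.10, with 116 fallen and 229 risen.

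**Figure D3:**
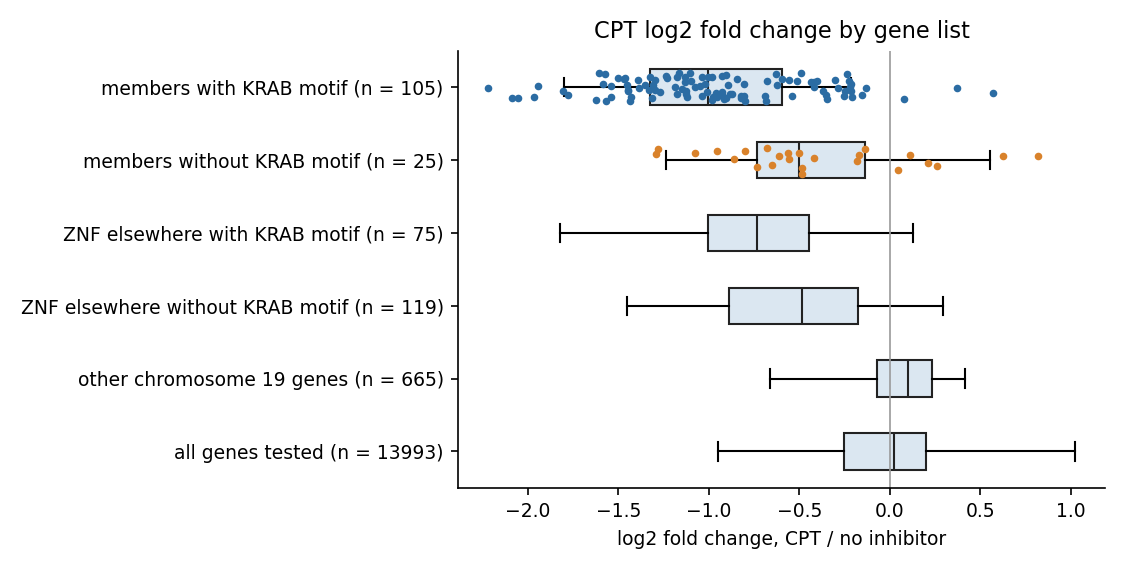
Log2 fold change of CPT against no inhibitor (x axis) in 6 gene lists, with boxes from the 25th to the 75th percentile, a line at the median, whiskers from the 5th to the 95th percentile and points for single members. Medians are -1.01 and -0.50 for members with and without a KRAB motif, -0.73 and -0.49 for ZNF genes elsewhere, 0.10 for other chromosome 19 genes and 0.02 for all genes tested. The KRAB pattern was widened after values were seen.

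The members were also compared by length. The median genomic span was 21121 bases for the 107 fallen members, 13370 for the 19 that did not pass and 7272 for the 4 that rose. Split by span, 29 of the 43 shortest members fell, 37 of the next 43 and 41 of the 44 longest, with medians of -0.68, -0.98 and -1.11. Within members with a KRAB motif the medians were -0.82, -0.995 and -1.13, and in the shortest group the 16 members without the motif had a median of -0.33. Spearman's rho between span and the log2 fold change was -0.29 over the 130 members and -0.31 over all 13993 genes tested. For exonic length rho was -0.04 over the members and -0.32 over all genes. The number of fingers (median 13 in fallen and 10 in members that did not pass) had a rho of -0.29, and the GC content of the promoter window one of 0.34 over 116 members. Within the 105 members with a KRAB motif, rho was -0.19 for span, 0.23 for exonic length and -0.13 for fingers, and it was 0.19 for GC content over the 92 of them with a window. Span, fingers, KRAB motif and GC content vary together across these genes, and members are not independent of each other, so these are descriptions. The 3 longest members were *ZNF254* (96563 bases), *ZNF83* (78217) and *ZNF566* (44784), and the 3 shortest *ZNF581* (2004), *ZNF580* (2445) and *ZNF524* (2799). *ZNF254* fell from 65.6, 64.9, 54.0 and 79.9 normalized counts to 41.5, 30.6, 14.0 and 17.5 with CPT, while *ZNF524* had 91.9, 98.2, 101.7 and 73.1 without and 117, 128, 107 and 68.1 with CPT.

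ICRF193, which acts on TOP2, left the members near their levels without inhibitor. In 4 pairs, 1 member rose and none fell, against 0.587% and 1.58% of the 13631 genes tested. By edgeR, 11 members (8.46%) had an unadjusted p under 0.05, against 11.5% of all genes tested. DESeq2 called no member and left 5 without an adjusted p. The log2 fold changes ran from -0.20 to 0.30 with a median of 0.00. The comparisons of ICRF193 and of CPT with no inhibitor share their libraries without inhibitor. The member that rose was *ZNF627*, the same gene that fell most with CPT. It had 393, 378, 435.5 and 499 normalized counts with ICRF193, each above its partner without inhibitor (0.30, SE 0.06, adjusted p = 0.00161; pairs 0.21 to 0.43), but its adjusted p was 0.119 in DESeq2 and 0.0840 without the WT pair with TNFα. One library of the ICRF193 pairs, p65-deficient at 0 h, had 8755001 counted reads against 20524958 in its partner.

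Compared directly at the same dose and time, CPT and ICRF193 differed. In 4 pairs, 108 members were lower and 4 higher with CPT than with ICRF193 (25.5% and 20.9% of 13900 genes tested), with a median of -0.92. The CPT libraries are the same as in the comparison with no inhibitor, so these are not independent calls. *ZNF627* differed by -2.53 (SE 0.13), *ZNF112* by -2.25 (SE 0.21), *ZNF114* by -2.17 (SE 0.17), *ZNF566* by -2.04 (SE 0.19) and *ZNF136* by -2.02 (SE 0.17), each in the same direction in all 4 pairs. In 96 members every CPT library was below the other 8 libraries (17.6% of the genes tested with CPT). The members took 2708 to 3036 CPM with ICRF193.

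TNFα for 1 h did not detectably move these genes in WT cells. No member passed in 3 pairs with edgeR or with DESeq2, against 0.642% of the 13707 genes tested, and 7 members (5.38%) had an unadjusted p under 0.05, against 4.34% of those genes. The log2 fold changes ran from -0.32 to 0.19 with a median of -0.02. *NFKBIA*, a target gene of NF-κB, ran from 909 to 8758 normalized counts over the same WT libraries. The CPT effect did not differ detectably between 1 h and 0 h TNFα either. No member passed the interaction test with edgeR or DESeq2, against 0.00715% of all genes tested. By edgeR, none had an unadjusted p under 0.05, against only 0.586% of all genes tested, so that this count tells little about the members. The differences ran from -0.57 to 0.38, with a median of -0.03. The 2 pairs at each time come from different lines, so that differences between the lines enter the error of this test.

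The CPT effect differed between the lines for some members. An interaction term called 14 members as less lowered or more raised, and 2 as more lowered, in p65-deficient than in WT cells. These were 10.8% and 1.54% of the members, against 2.29% and 2.22% of the 13993 genes tested. For other chromosome 19 genes the shares were 6.32% and 1.05%, and for ZNF genes elsewhere 5.05% and 4.04%. The median difference was 0.18, against -0.02 for all genes tested, 0.10 for other chromosome 19 genes and -0.04 for ZNF genes elsewhere. By the interaction term it was above 0 for 88 members and below 0 for 42, against 6547 and 7446 of all genes tested. Among the other chromosome 19 genes it was above 0 for 461 and below 0 for 204. Among ZNF genes elsewhere it was above 0 for 90 and below 0 for 108. With each line fitted alone, the CPT log2 fold change was higher in the p65-deficient pairs for 90 members and lower for 40. *ZNF574* (42580290 to 42585720, plus strand) differed most. In WT cells it had 872 and 804 normalized counts without inhibitor and 303 and 353 with CPT, and in p65-deficient cells 781 and 727 without and 814 and 704 with CPT. It was thus lower with CPT in both WT pairs, and in the p65-deficient pairs slightly higher in one and slightly lower in the other (log2 ratios 0.06 and -0.05; difference between the lines 1.34, SE 0.12, adjusted p = 1.65e-05).

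*ZNF823* fell from 205 and 205 to 52.3 and 66.4 normalized counts in WT cells, and had 285.5 and 209 without and 183 and 161 with CPT in p65-deficient cells (difference 1.21, SE 0.19, adjusted p = 0.00178). *ZNF557* fell from 552 and 507 to 179 and 184 in WT cells and had 455 and 384 without and 335.5 and 311 with CPT in p65-deficient cells (1.13, SE 0.14, adjusted p = 0.000192). Both genes were lower with CPT in each pair, by less in the p65-deficient clone. *ZNF230* and *ZNF701* had log2 ratios below 0 in both WT pairs (-0.996 to -0.60) and above 0 in both p65-deficient pairs (0.04 to 0.57). *ZNF473*, whose product acts with the U7 snRNP in histone mRNA 3′ end processing, had a CPT log2 fold change of -1.74 in WT and -0.86 in p65-deficient cells. In the other direction, *ZNF100* changed by -0.99 in WT and -1.64 in p65-deficient cells, and *ZNF146* by -0.44 and -0.71. DESeq2 called 4 members higher and 0 lower, and left 46 members without an adjusted p. Both libraries of the p65-deficient pair with TNFα were among the shallow ones. A fit with 1 p65-deficient pair left out keeps a single pair of that line, which is assumed to vary like the WT pairs. The calls changed with the pair left out and were fewest without the p65-deficient pair at 0 h.

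**Figure D4:**
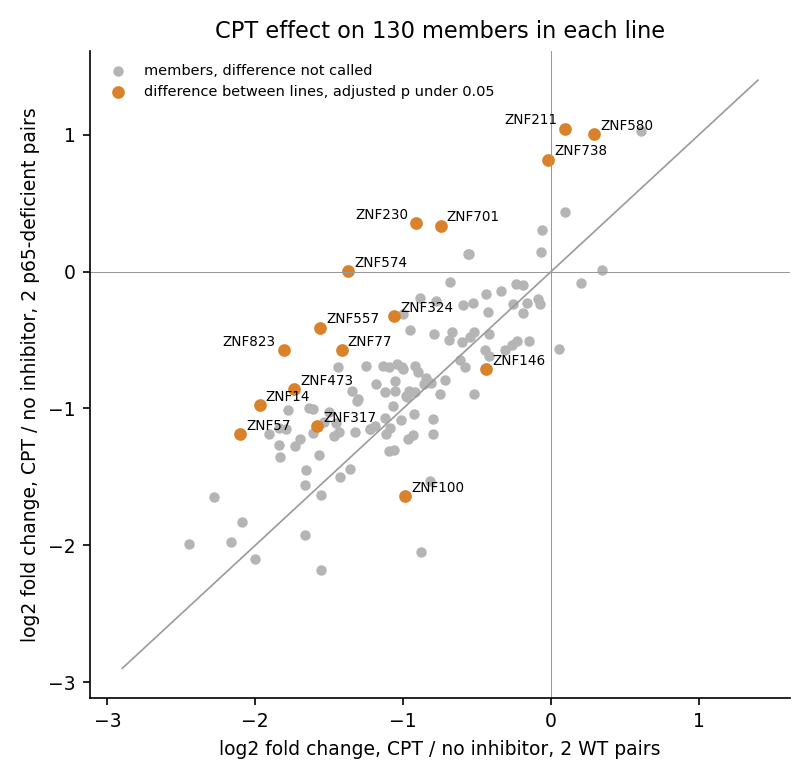
Log2 fold change of CPT against no inhibitor in the 2 WT pairs (x axis) and the 2 p65-deficient pairs (y axis) for 130 members. Orange points are the 16 members whose difference between the lines had an adjusted p under 0.05, and the grey diagonal marks equal changes, with 90 members above it and 40 below.

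Members were more often higher than lower in the p65-deficient clone than in WT cells. This comparison includes the libraries used for the CPT effect by line, so the 2 results are not independent. Over 6 pairs, 45 members were higher and 3 lower than in WT cells, against 15.2% and 16.9% of the 13730 genes tested, with a median of 0.19 against 0.00. Of 75 ZNF genes elsewhere with a KRAB motif, 15 were higher and 4 lower (median 0.11). Of 119 without it, 25 were higher and 22 lower (median 0.02). Of the 665 other chromosome 19 genes, 107 were higher and 120 lower (median 0.00). The median ratio of the members was 0.31 in both CPT pairs and 0.07 to 0.12 in the other 4. In the 4 pairs without CPT, an alternative chosen after seeing the data, 43 members were higher and 14 lower (median 0.13). The calls depended on the fit. There were 8 higher and 0 lower without the block, and 6 higher and 0 lower in the 2 pairs of deeply sequenced libraries. Shares over all genes were not taken for these alternative fits, so their counts cannot be set against a background. In 5 of the 6 pairs the p65-deficient library was the shallower one, and the part of depth in these calls was not tested. In 5 members every p65-deficient library was above every WT library (4.03% of all genes tested).

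*ZNF446* (58987531 to 59000900, plus strand) differed most between the lines. Its normalized count was lowest at 68.1, 79.9 in the median and highest at 92.6 in the 6 WT libraries, and 136, 187 and 224 in the 6 p65-deficient libraries, without overlap (1.19, SE 0.12, adjusted p = 7.14e-06). Next to it, *ZNF324* (58978412 to 58984945) and *ZNF324B* (58962971 to 58969199), both on the plus strand, were higher too, by 0.62 (SE 0.10, adjusted p = 0.000448) and 0.98 (SE 0.08, adjusted p = 1.41e-06). *ZNF324B* had 132 to 157.5 normalized counts in WT and 213 to 316 in p65-deficient libraries. These are close copies of each other, whose shared reads were not counted. *ZNF85* and *ZNF555* were higher by 0.62 each. The 3 lower members were *ZNF100* (-0.45), *ZNF430* (-0.42) and *ZNF146* (-0.17), of which *ZNF100* and *ZNF430* lie in the same cluster (21106059 to 21950430), and in each of them all 6 pairs lay below 0.

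**Figure D5:**
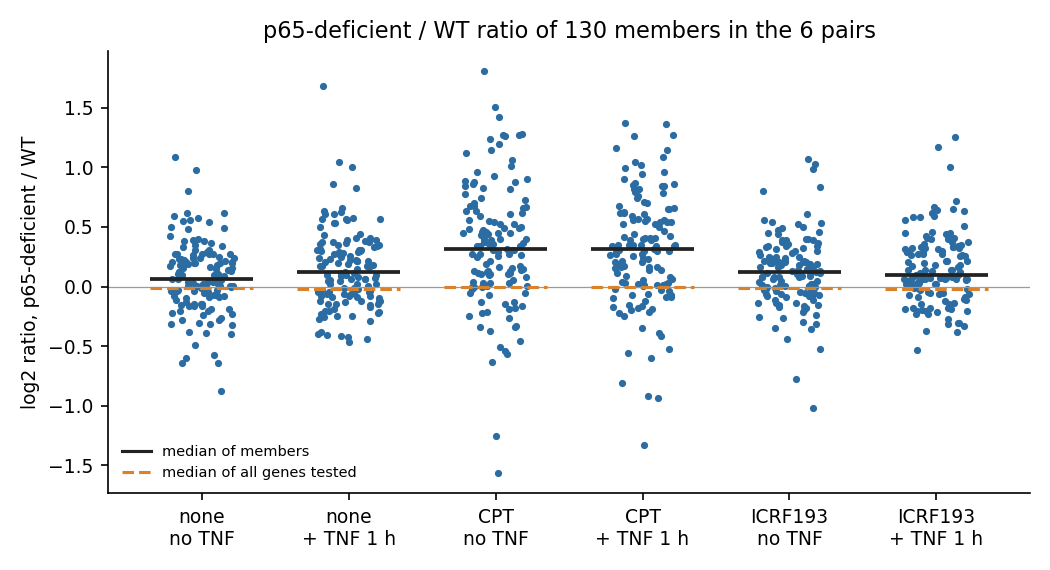
Log2 ratio of p65-deficient to WT normalized counts (y axis) for 130 members in each of the 6 matched pairs (x axis). The black bars, medians of the members, are at 0.31 in both CPT pairs and between 0.07 and 0.12 in the other 4, and the dashed orange bars, medians of all genes tested, lie between -0.02 and -0.01.

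The mean CPM per kb of exon was highest for *ZNF146* (73.0), a protein of zinc fingers without a KRAB domain that is overexpressed in some carcinomas, and for *ZNF121* (55.1), *ZNF581* (23.8), *ZNF787* (23.5) and *ZNF544* (20.8). It was lowest for *ZNF814* (0.616), *ZNF555* (0.709) and *ZNF738* (0.715). The strongest expressed members also fell with CPT. *ZNF146* had 4506, 4581, 4025 and 4532 normalized counts without inhibitor and 3539, 3251, 2497 and 2780.0 with CPT (-0.56), and *ZNF121* had 1506, 1528, 1492 and 1648 without and 882, 873, 850.5 and 962 with CPT (-0.80). Exons of *ZNF146* overlap those of *ZNF565*. Across the 130 members, level per length and the CPT log2 fold change had a rho of 0.02.

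Genes for the co-repressors through which KRAB zinc finger proteins act were listed as well. Of 16 such genes, all tested, 5 rose (31.2%) and 4 fell (25%) with CPT, against 23.2% and 25.1% of all genes tested, with a median of 0.11. *TRIM28*, itself on chromosome 19, rose by 0.20 (SE 0.05), and so did the HP1 gene *CBX5* (0.22, SE 0.05), the deacetylase genes *HDAC1* (0.31, SE 0.04) and *HDAC2* (0.13, SE 0.04), and the remodeller gene *CHD3* (0.20, SE 0.07). The H3K9 methyltransferase gene *SETDB1* changed by -0.45 (SE 0.06), its partner *ATF7IP* by -0.43 (SE 0.06), the HUSH subunit gene *MPHOSPH8* by -0.20 (SE 0.06) and the remodeller gene *SMARCAD1* by -0.32 (SE 0.06). *CBX1*, *CBX3*, *CHD4*, *MORC2*, *PPHLN1*, *FAM208A* and *DNMT1* did not pass. None of the 16 passed for TNFα or between the lines, 1 rose with ICRF193, and 1 had a CPT effect that was lower in p65-deficient than in WT cells.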

How the data were processed

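RNA-seq counts of 12 libraries were used. Per the file headers and the labels, the authors deposited raw counts of reads on exons per gene symbol (hg19, featureCounts 1.5.0, no strand option, multi-mapping and ambiguous reads not counted), without normalization. Trimmomatic, STAR and deepTools are named without versions in the submitters' processing notes. Members and lists were chosen with earlier results of these data known.

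Genes passing edgeR's filterByExpr on the tested factor were fitted with edgeR 4.0.16 (R 4.3.3, TMM, quasi-likelihood test, matched pair as block, Benjamini-Hochberg). Interaction models tested CPT by line and by TNFα over 4 pairs. Alternatives were DESeq2 1.42.0, RLE and total-count scaling, no filter, no block, a 2-fold threshold, other membership limits, a cluster gap of 0.5 Mb, leaving out pairs, and subsets of pairs added after seeing the data. Fits were tested on simulated data.

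Depth was 8101212 to 22051046 counts. Counts per library carry counting error, and members near the limit of 50 are the least precise.

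Fingers and the KRAB motif were counted by patterns in translated GENCODE release 29 transcripts, with the KRAB pattern widened after values were seen. Spans and exons are hg19, promoter windows RefSeq GRCh38.p14.

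Named were, for CPT, the 10 members lowered and 10 raised most among those called with the same sign in 4 pairs (only 3 rose so), the 5 highest-count members not called, elsewhere 5 per direction, extremes of level and span, neighbours of the limit, and listed co-repressors. *ZNF211* with CPT, *ZNF792*, *ZNF675* (promoter) and *ZNF473* (line difference) were named after their values were seen. Python 3.11.15, numpy 2.4.6, pandas 2.3.3 and matplotlib 3.10.9 were used.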

Additional observations from a re-analysis of the deposited data

Results flagged for a closer look

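The CPT effect of 16 members differed between the lines by the interaction term, and these are the values a reader may want to look at again. As CPT log2 fold change in p65-deficient minus that in WT cells, the difference was 1.34 for *ZNF574*, 1.24 for *ZNF230*, 1.21 for *ZNF823*, 1.13 for *ZNF557*, 1.06 for *ZNF701*, 0.97 for *ZNF14*, 0.92 for *ZNF211*, 0.89 for *ZNF57*, 0.84 for *ZNF473*, 0.81 for *ZNF77*, 0.81 for *ZNF738*, 0.70 for *ZNF324*, 0.69 for *ZNF580* and 0.43 for *ZNF317*. It was -0.30 for *ZNF146* and -0.68 for *ZNF100*. In *ZNF580*, *ZNF211* and *ZNF738* the CPT log2 fold change was 0.29, 0.10 and -0.02 in WT and 1.01, 1.05 and 0.82 in p65-deficient cells. *ZNF738*, which did not pass for CPT over the 4 pairs (adjusted p = 0.0804 by edgeR's quasi-likelihood test), had 117 and 107 normalized counts without inhibitor and 111 and 113 with CPT in WT cells, and 98.9 and 105 without and 197 and 148 with CPT in p65-deficient cells. It is a member by its symbol, since the finger pattern found 0 fingers in its translated protein of 137 amino acids. In *ZNF57*, *ZNF77*, *ZNF14*, *ZNF473*, *ZNF317* and *ZNF324* the level was lower with CPT in each pair, by less in the clone. With 1 library per condition, outlying libraries could not be tested for within groups.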

How the results depend on the processing

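With CPT, 98 to 108 members fell under the alternative tests, scalings, filters and pair exclusions, 111 in the WT pairs and 103 in the p65-deficient pairs. With a log2 fold change beyond 1, 56 fell and 0 rose. Without the pair as a replicate block, 98 fell and 2 rose, and 2 to 5 rose with a pair left out (2 without either p65-deficient pair). The median was -0.82 in the p65-deficient pairs and -0.96 to -0.86 with a pair left out. At a 0.5 Mb gap, 19 of 20 clusters had a median below 0. Against ICRF193, 2 to 4 members were higher with a pair left out (2 without the p65-deficient pair at 0 h). For ICRF193, 0 members passed with DESeq2 or without the block, 2 without a filter, and 0 to 2 with a pair left out (0 without the WT pair with TNFα, 2 without the p65-deficient pair at 0 h). DESeq2 left 5 members without an adjusted p for ICRF193. For TNFα, 0 to 1 passed with a pair left out (1 without the CPT pair), and for the CPT effect by TNFα 0 to 1 (1 without the WT pair at 0 h). For the CPT effect by line, DESeq2 called 4 higher and 0 lower, and leaving out a pair 4 to 19 higher and 0 to 3 lower (4 and 0 without the p65-deficient pair at 0 h), with the lone pair of a line assumed to vary like the other line's. Between the lines, 8 members were higher and 0 lower without the block, 6 and 0 in the deeply sequenced pairs at 0 h, 43 and 14 in the pairs without CPT, and 37 and 5 in the CPT pairs, and 6 were lower without a filter. With a pair left out, 32 to 48 were higher and 2 to 7 lower (7 without the CPT pair at 0 h). The cause was not tested. Shares over all genes were not taken for the alternative fits. For single named members, 388 of 429 alternative values kept their call, 39 lost it, 2 gained it, and none reversed. Depth limits the members with few reads in the 4 shallow libraries.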
